A study of Oryza sativa with 12 samples.

Results

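Respiratory burst oxidase homologues (RBOH) are the NADPH oxidases of plants, and 9 rice loci named RBOHA to RBOHI were followed here by their locus IDs. All 9 are among the 57265 features of the deposited count table. The loci are LOC_Os01g53294 (RBOHA), LOC_Os01g25820 (RBOHB), LOC_Os05g45210 (RBOHC), LOC_Os05g38980 (RBOHD), LOC_Os01g61880 (RBOHE), LOC_Os08g35210 (RBOHF), LOC_Os09g26660 (RBOHG), LOC_Os12g35610 (RBOHH) and LOC_Os11g33120 (RBOHI). The table itself gives no gene names. Of the 9 names, the RefSeq gene table lists 1, RBOHB, at a matching place on chromosome 1, and the remaining 8 names rest on the pairing of ID and name alone.

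RNA came from roots of rice (Oryza sativa) cultivar XS134, taken from seedlings 7 days old. The plants were wild type or carried an RNAi transgene against OsPEP1, and each genotype received ethanol, the control, or PEP1 at 1 µM. Each of the 4 groups has 3 libraries. The RNAi plants are 1 line, and the labels give neither its promoter nor how long PEP1 was applied. Nor do they name the locus of OsPEP1, so the level of the targeted gene was not analysed here.

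An RBOH protein sits in the plasma membrane and passes electrons from NADPH in the cytosol through FAD and haem to oxygen outside the cell, which gives superoxide. Superoxide dismutases turn it into hydrogen peroxide, and catalases and ascorbate peroxidases remove that peroxide. The activity of these enzymes is set largely after translation. Calcium binds EF hands in the N-terminal part, calcium-dependent protein kinases and receptor-associated kinases phosphorylate the same part, and RAC/ROP GTPases bind to it. In plants the family is known for the oxidative burst of immunity, for root hair growth (Arabidopsis RBOHC) and for the formation of air spaces in roots (rice RBOHH). The letters of rice and Arabidopsis genes do not mark counterparts.

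Total counts per library ranged from 15368736 to 21317008. Levels below are CPM, the read count of a locus relative to its library's total, scaled by TMM factors that correct for library composition, and they were compared between groups for each locus, never between loci, because no transcript lengths were used. The fixed root markers (3 loci) summed to 1080 CPM or more in every library, and the 6 shoot markers to between 14.2 and 1020 CPM. Under PEP1 2 of 3 root markers rose in the wild type (2.54% of all genes) and 0 of 3 passed in the RNAi line, with 1 at an unadjusted p below 0.05. The remaining root marker, LOC_Os02g44310, had the opposite sign. Its log2 change was -0.52 in the wild type and -0.83 in the RNAi line (edgeR adjusted p = 0.592 and 0.228). In either genotype 0 of 6 shoot markers and 0 of 2 tested root hair markers passed in edgeR. At an unadjusted p below 0.05 stood 0 shoot and 0 root hair markers in the wild type, and 4 and 1 in the RNAi line. Wild type ethanol 1, RNAi ethanol 2 and RNAi PEP1 2 are called here the 3 libraries that stood apart. Results are given without these 3 libraries where that changes a call or a direction. Their mean correlations with group mates in log2 CPM were 0.926, 0.964 and 0.945. RNAi ethanol 1 had 0.965, so this measure does not set RNAi ethanol 2 apart from its group. Wild type ethanol 2 (0.932) and wild type PEP1 2 (0.956) were below RNAi ethanol 2 on this measure but were kept. Leaving out the 3 therefore does not remove every library unlike its group. The labels do not say that libraries of a group came from separate plants or cultures, so p-values measure the spread between these libraries, which may be technical.

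Reads were found for all 9 loci, and 8 passed the filter on low counts. RBOHA, RBOHB, RBOHC, RBOHF, RBOHG and RBOHI each had at least 666 reads in every library. RBOHH had 34 to 168 reads per library and RBOHE 5 to 34. RBOHD had 52 reads over the 12 libraries together and was not tested with the rest.

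No RBOH locus passed in any of the 5 comparisons. By the quasi-likelihood test of edgeR, with p-values adjusted (Benjamini-Hochberg) over 25602 genes, 0 of the 8 tested loci had an adjusted p below 0.05 for PEP1 against ethanol in the wild type, where 5.19% of all tested genes passed. The same count of 0 was found for PEP1 in the RNAi line, where 15.4% of genes passed, for the genotypes compared under ethanol (3.79%) and under PEP1 (2.65%), and for the interaction, which asks whether PEP1 changes a gene unequally in them (0.00391%). At an unadjusted p below 0.05 stood 1, 1, 3, 1 and 1 of the 8 loci in these comparisons, against 19.5%, 33.0%, 14.1%, 9.18% and 5.28% of all tested genes. DESeq2 passed 0, 1, 2, 0 and 0 loci, and limma-voom passed none in any of the 5, with adjusted p-values below 0.05 required in each. DESeq2 also passed more genes in all, at 2577, 6291, 1699, 1044 and 95 in these comparisons. In edgeR these numbers were 1330, 3934, 971, 679 and 1, so a pass in DESeq2 alone is the weaker call.

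**Figure D1:**
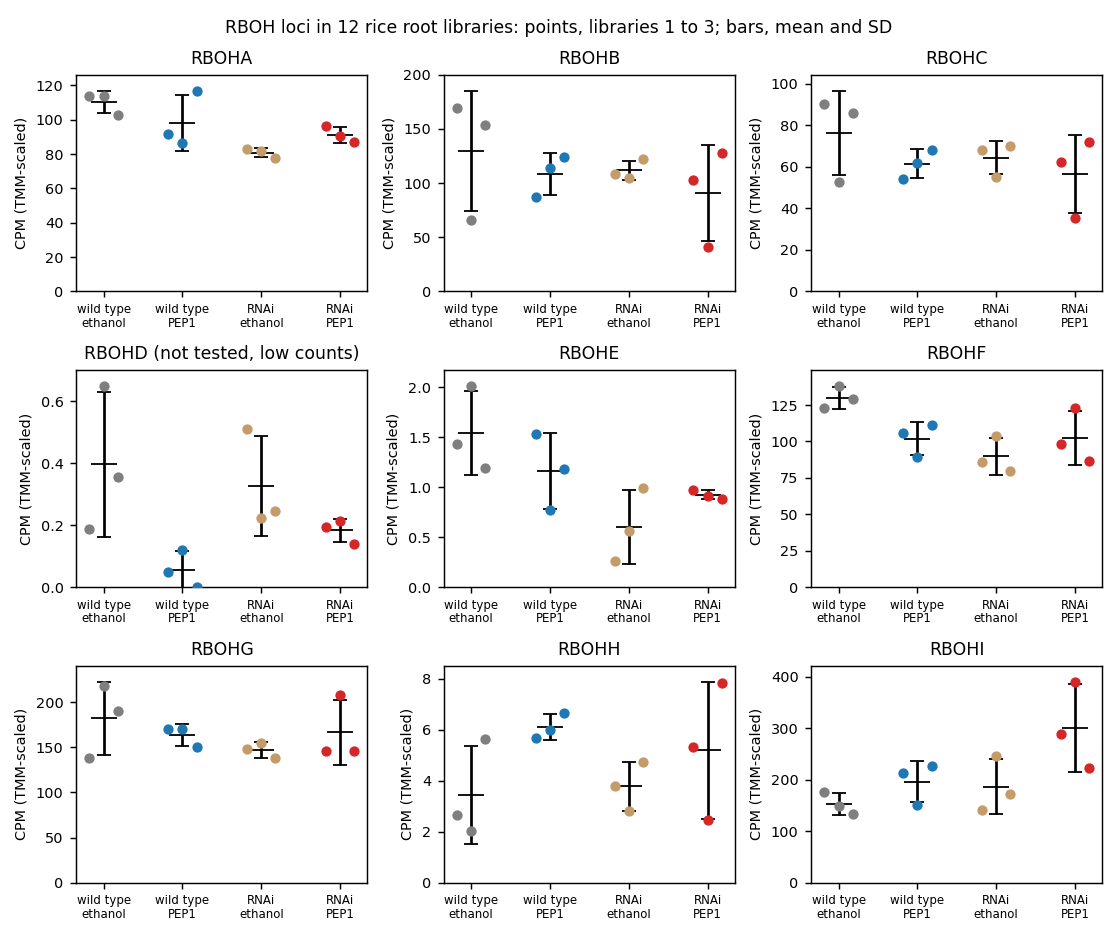
CPM of each RBOH locus (y axis of each panel, from 0) in the 4 groups of 3 libraries; points are libraries and bars the mean and SD (the lower bar of RBOHD in wild type PEP1 runs past the axis limit of 0). RBOHF is at 123 CPM or more in the wild type ethanol libraries and at 111 or less in wild type PEP1, RBOHI reaches 390 CPM in 1 RNAi PEP1 library, and RBOHB and RBOHC each have 1 low library in wild type ethanol and in RNAi PEP1.

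RBOHI had the largest unadjusted signal for PEP1 in the RNAi line. It stood at 175, 149 and 134 CPM in wild type ethanol libraries 1 to 3 and at 212, 150 and 226 CPM in wild type PEP1. RNAi roots stood at 141, 245 and 171 CPM under ethanol and at 288, 390 and 222 CPM under PEP1. The highest 2 values of the 12 are RNAi PEP1 libraries, but RNAi PEP1 3 lies below RNAi ethanol 2, so the groups overlap.

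In the RNAi line the log2 change of RBOHI under PEP1 was 0.69 ± 0.26 (SE, n = 3 each), with a 95% interval from 0.13 to 1.26 (edgeR adjusted p = 0.0888). In the wild type it was 0.36 ± 0.26 (interval -0.20 to 0.92, edgeR adjusted p = 0.492), and the difference between these changes was 0.33 (interval -0.46 to 1.13, edgeR adjusted p = 0.961). The call in the RNAi line turned with the setting. With DESeq2 the adjusted p was 0.0454, and without RNAi PEP1 3 the edgeR adjusted p was 0.0488 at a log2 change of 0.87. Without RNAi PEP1 2, the highest library, the change was 0.46 (edgeR adjusted p = 0.285). By mean level the order was RNAi PEP1 (300 ± 84.7 CPM, SD), wild type PEP1 (196 ± 40.6), RNAi ethanol (186 ± 53.6) and wild type ethanol (153 ± 20.9), and the neighbours compared directly, RNAi PEP1 and wild type PEP1, did not pass (log2 difference 0.62, interval 0.05 to 1.18, edgeR adjusted p = 0.454).

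RBOHF and RBOHA were lower in the RNAi line than in the wild type under ethanol in every library, without passing over all genes. RBOHF had 123, 138 and 129 CPM in wild type ethanol and 85.7, 104 and 79.4 CPM in RNAi ethanol. RBOHA had 114, 114 and 103 CPM in wild type ethanol and 82.7, 81.6 and 77.7 CPM in RNAi ethanol. In neither locus do these groups overlap, and the same holds for RBOHE. That is 3 of 8 loci, where 17.3% of all tested genes had groups without overlap.

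The log2 difference of RBOHA between the genotypes under ethanol was -0.45 ± 0.12 (SE, interval -0.72 to -0.18, edgeR adjusted p = 0.0750). For RBOHF it was -0.53 ± 0.15 (interval -0.87 to -0.19, edgeR adjusted p = 0.103). Both passed with DESeq2, at adjusted p-values of 0.0118 for RBOHA and 0.0255 for RBOHF. RBOHA passed in edgeR also without wild type PEP1 3 (adjusted p = 0.0274). That library is in neither group compared and enters through the filter, scaling and estimate of spread of the shared fit. RBOHF passed in edgeR without the 3 libraries that stood apart (-0.70, adjusted p = 0.0461). Over the 19 alternatives the edgeR, DESeq2 and limma adjusted p ranged from 0.0118 to 0.291 for RBOHA and from 0.0255 to 0.337 for RBOHF.

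Under PEP1 the genotypes overlapped in all 8 tested loci, where 16.0% of genes did not overlap. RBOHA had 91.6, 86.6 and 117 CPM in wild type PEP1 and 96.4, 90.3 and 87.2 CPM in RNAi PEP1, a log2 difference of -0.11 (interval -0.37 to 0.16, edgeR adjusted p = 0.943). RBOHF had 106, 89.0 and 111 CPM and 98.3, 123 and 86.4 CPM in these groups, a difference of 0.01 (interval -0.33 to 0.35, edgeR adjusted p = 0.998). The sign of the RBOHF difference turned without RNAi PEP1 2, to -0.14, and that of RBOHA turned without wild type PEP1 3, to 0.03.

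The PEP1 changes of RBOHF had opposite signs in the genotypes. In the wild type the log2 change was -0.35 ± 0.15 (SE, interval -0.69 to -0.01, edgeR adjusted p = 0.249), and every ethanol library lay above every PEP1 library. In the RNAi line it was 0.20 ± 0.15 (interval -0.14 to 0.54, edgeR adjusted p = 0.398) with overlapping groups. The interaction was 0.54 ± 0.22 (interval 0.06 to 1.02) at an unadjusted p of 0.0307 and an edgeR adjusted p of 0.911. The wild type ethanol libraries take part in the PEP1 comparison of the wild type, in the ethanol comparison of the genotypes and in the interaction, so these values are not independent of each other. RBOHA had the same pattern of signs, at -0.17 in the wild type and 0.18 in the RNAi line, with an interaction of 0.34 (interval -0.03 to 0.72, edgeR adjusted p = 0.948). In the RNAi line every RBOHA value under PEP1 lay above every ethanol value, which was so for 1 of 8 loci and, in either direction, for 41.5% of tested genes.

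**Figure D2:**
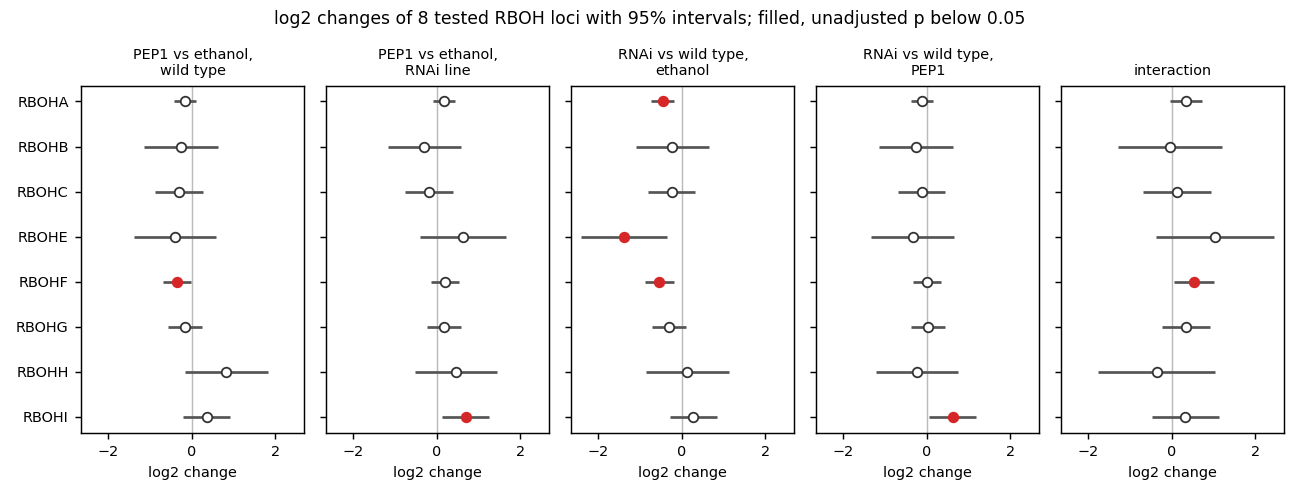
Log2 change (x axis) of the 8 tested RBOH loci (y axis) in the 5 comparisons; circles are estimates, lines 95% intervals, and filled circles have an unadjusted p below 0.05. Filled circles stand at RBOHF and RBOHI for PEP1, at RBOHA, RBOHE and RBOHF for the genotypes under ethanol, at RBOHI under PEP1 and at RBOHF in the interaction, and none passed after adjustment in edgeR.

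RBOHH, the oxidase that rice needs for inducible air spaces (aerenchyma) in roots, was higher under PEP1 in each wild type library. It had 2.67, 2.01 and 5.63 CPM in wild type ethanol and 5.66, 6 and 6.65 CPM in wild type PEP1. The groups do not overlap, though wild type ethanol 3 and wild type PEP1 1 are almost equal. Groups were without overlap in 2 of 8 loci here, RBOHF and RBOHH, and in 20.9% of tested genes.

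The log2 change of RBOHH in the wild type was 0.83 ± 0.45 (SE, interval -0.17 to 1.82, edgeR adjusted p = 0.353). RNAi plants had 3.79, 2.80 and 4.74 CPM under ethanol and 5.30, 2.46 and 7.83 CPM under PEP1, where library 2 is the lowest of all 6. That log2 change was 0.46 ± 0.45 (interval -0.52 to 1.45, edgeR adjusted p = 0.496). These intervals still hold a rise of more than 1 on the log2 scale, so a change of that size was not excluded for RBOHH at 34 to 168 reads per library.

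RBOHE and RBOHD had few reads, and their values carry large counting error. Wild type roots had 23, 34 and 20 RBOHE reads under ethanol and 31, 13 and 24 under PEP1. RNAi roots had 5, 10 and 16 under ethanol and 20, 17 and 19 under PEP1. Every RNAi ethanol value was below every wild type ethanol value. The log2 difference was -1.37 ± 0.46 (SE, interval -2.39 to -0.34, edgeR adjusted p = 0.181). The fixed root hair markers (4 loci, of which 2 were tested) summed to 5.78 to 43.8 CPM in wild type ethanol and to 7.88 to 19.0 CPM in RNAi ethanol, with 0 markers absent from a whole group.

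RBOHD had 3, 11 and 6 reads in wild type roots under ethanol and 1, 2 and 0 under PEP1. Roots of the RNAi line had 10, 4 and 4 reads under ethanol and 4, 4 and 3 under PEP1. The lowest 3 counts of the 12 are the wild type PEP1 libraries. With no filter on low counts, the log2 change in the wild type was -2.76 ± 0.88 (SE, unadjusted p = 0.00848, edgeR adjusted p = 0.135). It passed without wild type ethanol 1 (-3.11, edgeR adjusted p = 0.0395) and missed without the 3 libraries that stood apart (adjusted p = 0.0540). The low-count filter kept RBOHD in these fits but not with all 12 libraries, and its highest counts, 11 and 10, are ethanol libraries. Wild type ethanol 1 is also the lowest of its group, at 3 reads. That pass is therefore no support for a fall. A count of 0 allows up to 3 reads, which is 0.148 CPM in wild type PEP1 3 and covers counting error only.

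RBOHB, which takes part in the immune oxidative burst of rice together with RAC1, spread most among the loci with many reads. It had 169, 65.9 and 154 CPM in wild type roots given ethanol and 87.3, 114 and 124 CPM in those given PEP1. RNAi roots had 108, 105 and 122 CPM under ethanol and 103, 41.4 and 128 CPM under PEP1. The highest library and the second lowest belong to the same group, wild type ethanol.

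RBOHC followed RBOHB from library to library. Wild type roots had 90.3, 52.9 and 85.9 CPM of it under ethanol and 54.3, 62.0 and 68.2 CPM under PEP1. RNAi roots had 68.0, 55.4 and 70.3 CPM under ethanol and 62.4, 35.6 and 71.9 CPM under PEP1. The lowest 2 libraries of either locus are RNAi PEP1 2 and wild type ethanol 2, and the highest of either is wild type ethanol 1. In a group these libraries lie side by side with others of the same treatment, so treatment and genotype do not separate them.

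Over the 12 libraries the log2 CPM of RBOHB and RBOHC had a Pearson's r of 0.96 and a Spearman's rho of 0.96. The permutation p (100000 resamples, two-sided) was 1e-05 for each, the smallest these resamples can give, and 0.00028 after adjustment over the 28 pairs of loci. Without the 2 libraries farthest from the median of RBOHB, which are RNAi PEP1 2 and wild type ethanol 2, r was 0.95. For the deviations of libraries from their group means it was 0.98. The resamples shuffled all 12 libraries without regard to group, and the pair was singled out after the values were seen. The p does not show a link particular to this pair. Outside the family, 82 genes had an r above 0.9 with RBOHB and 68 with RBOHC. None of the remaining 27 pairs passed after adjustment. The nearest was RBOHA with RBOHF (r = 0.76, rho = 0.74, permutation p = 0.00522 and 0.00790, adjusted p = 0.0731 and 0.111, r without the 2 farthest libraries 0.82). For deviations from group means its r was 0.40. By that measure other pairs were closer, with no p computed. They include RBOHC with RBOHG (-0.87), RBOHB with RBOHG (-0.86), RBOHC with RBOHH (0.85), RBOHF with RBOHI (0.83) and RBOHB with RBOHH (0.81).

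**Figure D3:**
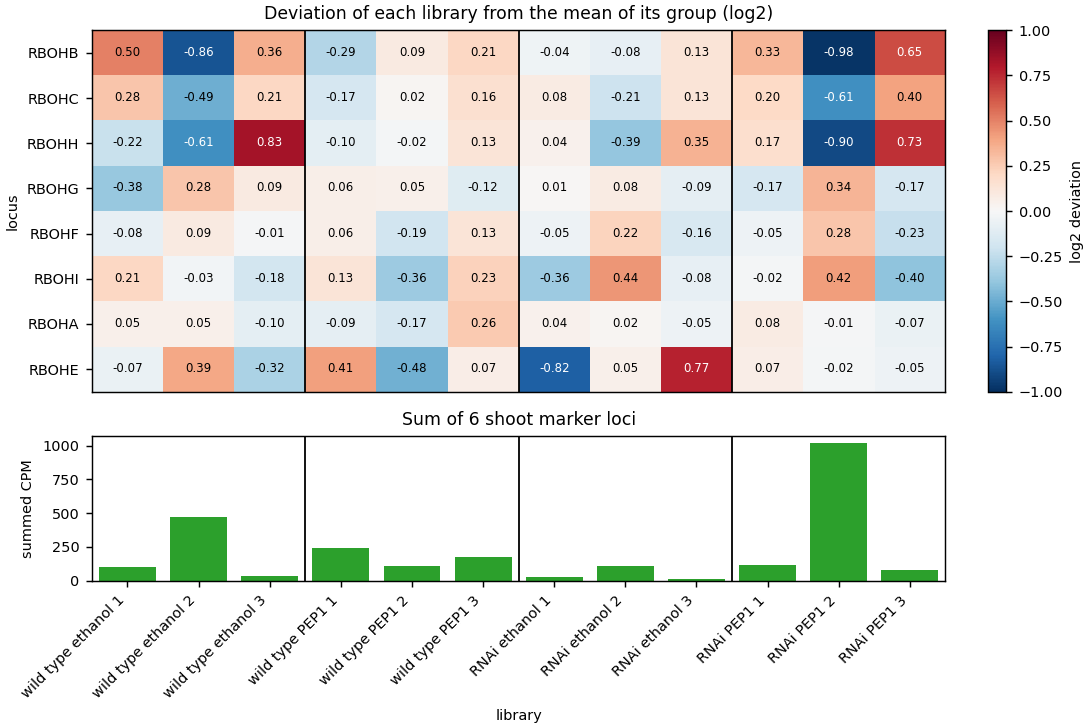
Deviation of each library (x axis) from the mean of its group in log2 CPM for 8 RBOH loci (rows), above the summed CPM of 6 shoot marker loci in the same libraries. RBOHB, RBOHC and RBOHH are lowest within their groups in wild type ethanol 2 and RNAi PEP1 2, where the shoot markers sum to 468 and 1020 CPM.

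In wild type ethanol 2 and RNAi PEP1 2, RBOHB lay 0.86 and 0.98 below its group means on the log2 scale (deviations -0.86 and -0.98). RBOHC deviated by -0.49 and -0.61 there and RBOHH by -0.61 and -0.90, while RBOHG deviated by 0.28 and 0.34. The shoot markers, which are photosynthesis genes, summed to 468 and 1020 CPM in these libraries, against at most 241 CPM in the other 10, and 0 of the 6 were without reads in any group. On the third principal component (10.5% of the variance) the same libraries had the highest positions, 69.0 and 67.7. The part of these differences between libraries in the RBOH values was not tested, and in bulk RNA fewer cells of a type and less RNA per cell cannot be told apart.

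The PEP1 changes of RBOHB and RBOHC had wide intervals. For RBOHB the log2 change was -0.26 (interval -1.14 to 0.62, edgeR adjusted p = 0.780) in the wild type and -0.30 (interval -1.17 to 0.58, edgeR adjusted p = 0.635) in the RNAi line. For RBOHC it was -0.31 (interval -0.88 to 0.26) and -0.19 (interval -0.76 to 0.38), with edgeR adjusted p-values of 0.567 and 0.644. Without RNAi PEP1 2 the changes in the RNAi line turned to 0.06 for either locus.

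RBOHG overlapped between the groups of every comparison. It had 138, 218 and 191 CPM in wild type ethanol and 171, 170 and 150 CPM in wild type PEP1. RNAi plants had 148, 155 and 138 CPM under ethanol and 146, 208 and 146 CPM under PEP1. The PEP1 change was -0.15 (interval -0.56 to 0.25) in the wild type and 0.18 (interval -0.23 to 0.59) in the RNAi line, with edgeR adjusted p-values of 0.712 and 0.518. Without RNAi PEP1 2 the change in the RNAi line was -0.01. Between the genotypes under ethanol the difference was -0.31 (interval -0.71 to 0.10, edgeR adjusted p = 0.526), and the interaction was 0.34 (interval -0.24 to 0.91, edgeR adjusted p = 0.959).

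The loci differed in how closely libraries of a group resembled each other. The standard deviation of log2 CPM within groups was 0.13 for RBOHA, and 90.6% of tested genes had a larger one. It was 0.19 for RBOHF, 0.23 for RBOHG, 0.34 for RBOHI and 0.36 for RBOHC, where the median of all tested genes was 0.33. It was 0.49 for RBOHE and 0.59 for RBOHB and for RBOHH, and 22.7% of genes had a larger one than either of the last. For RBOHA a PEP1 change beyond 0.44 on the log2 scale in either direction lies outside the interval in the wild type and in the RNAi line, while for RBOHB a fall of 1 lies inside both intervals and a rise of 1 outside both.

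The regulators of RBOH activity and the enzymes that handle its products were counted in lists of loci written from general knowledge. In PEP1-treated wild type roots, 1 of 51 tested loci of the 5 lists rose in edgeR and 0 fell, against 2.54% and 2.66% of all genes. It was LOC_Os03g17690 (APX1), an ascorbate peroxidase that removes hydrogen peroxide in the cytosol. With PEP1 on the RNAi line 6 rose and 3 fell of the 51, against 8.68% and 6.68% of all genes. At an unadjusted p below 0.05 stood 7 of 51 in the wild type and 20 of 51 in the RNAi line, against 19.5% and 33.0% of all genes. In the RNAi line the 6 shoot markers summed to 28.2, 104 and 14.2 CPM in ethanol libraries 1 to 3. Under PEP1 they summed to 118, 1020 and 74.4 CPM, so the groups overlap and library 2 is far above the rest. Their median log2 change was 3.23, with 4 of 6 at an unadjusted p below 0.05 and 0 passing in edgeR. Their part in the changes of these lists was not tested.

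APX1 rose in either genotype. It had 268, 258 and 305 CPM in wild type ethanol and 651, 731 and 730 CPM in wild type PEP1. Roots of the RNAi line had 377, 276 and 376 CPM under ethanol and 742, 634 and 712 CPM under PEP1. All 6 PEP1 libraries lie above all 6 ethanol libraries. The log2 change was 1.34 ± 0.15 (SE, edgeR adjusted p = 0.000756) in the wild type and 1.02 ± 0.15 (edgeR adjusted p = 0.00287) in the RNAi line, and it passed in all 20 alternatives of each comparison.

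Of the 11 catalases and ascorbate peroxidases, the RNAi line had 2 that rose and 1 that fell, and the wild type 1 that rose (median log2 change 0.78 and -0.09, against -0.01 and 0.00 over all genes). Of all genes 8.68% rose and 6.68% fell in the RNAi line, and 2.54% rose in the wild type. The RNAi median includes loci that spread widely between libraries, such as LOC_Os02g02400 (catA). It had 174 ± 186 CPM in RNAi PEP1 (SD, n = 3) and did not pass (edgeR adjusted p = 0.273). The second that rose was the catalase locus LOC_Os03g03910, with 18.5 CPM in RNAi PEP1 2 against 4.81 and 3.91 CPM in the other RNAi PEP1 libraries. RNAi PEP1 2 is also the library with 1020 CPM of shoot markers. Its log2 change was 2.49 ± 0.64 (SE, edgeR adjusted p = 0.0282) and fell to 1.44 without that library (adjusted p = 0.104). The call was also lost without RNAi ethanol 1, 2 or 3 (adjusted p = 0.0771, 0.0695 and 0.104), with limma-voom (0.0629), and without the 3 libraries that stood apart (log2 change 1.52, adjusted p = 0.125). LOC_Os04g14680 (APX3) fell by 0.74 on the log2 scale (edgeR adjusted p = 0.0382). It missed the threshold in 12 of 20 alternatives, 8 of which leave out 1 library (wild type PEP1 1 or 3, or any RNAi library, highest adjusted p = 0.127), and without the 3 libraries that stood apart its adjusted p was 0.125. Of the 7 superoxide dismutases 0 passed in the wild type, with 0 at an unadjusted p below 0.05 in edgeR and 0 in DESeq2 and limma-voom, and LOC_Os06g05110 fell in the RNAi line by 0.77 (edgeR adjusted p = 0.0250). That call was lost without RNAi ethanol 2 or 3 or RNAi PEP1 1 or 2 (adjusted p = 0.0820, 0.0780, 0.0727 and 0.0855), and without the 3 libraries that stood apart (0.0820).

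RAC/ROP GTPases bind RBOH proteins in their active form, and exchange factors load them. All 9 loci of this list were tested. In the wild type 0 of 9 passed in edgeR, with 1 at an unadjusted p below 0.05 (19.5% of all genes). DESeq2 passed 1 there, and 2577 of the 25602 genes, and limma-voom 0. In the RNAi line 1 of 9 rose and 1 fell in edgeR, against 8.68% and 6.68% of all genes. LOC_Os06g12790 (RAC4) had 38.7, 21.2 and 23.6 CPM in RNAi ethanol and 9.97, 8.67 and 16.4 CPM in RNAi PEP1, and it fell by 1.25 on the log2 scale (edgeR adjusted p = 0.0190). LOC_Os02g50860 (RAC3) went from 47.8 ± 3.47 to 69.2 ± 3.08 CPM (SD, n = 3 each), and it rose by 0.53 ± 0.13 in log2 (SE, edgeR adjusted p = 0.0248). The RAC4 call was lost without RNAi ethanol 1, RNAi PEP1 1 or RNAi PEP1 2 (adjusted p = 0.0732, 0.0773 and 0.0731), and the RAC3 call without any RNAi library but RNAi PEP1 3 (0.0569 to 0.0784) and without the 3 libraries that stood apart (0.0767). In the wild type, RAC4 went from 34.2 ± 6.58 to 18.2 ± 2.87 CPM (log2 change -0.91 ± 0.29, SE, edgeR adjusted p = 0.105). LOC_Os01g12900 (RAC1), the immune partner of RBOHB, changed by -0.21 ± 0.52 and -0.34 ± 0.51 in the wild type and the RNAi line (SE, edgeR adjusted p = 0.874 and 0.675).

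Calcium-dependent protein kinases phosphorylate the N-terminal part of RBOH proteins. Of 29 loci 23 were tested. For PEP1 in the wild type 0 passed in edgeR, DESeq2 or limma-voom. There 3 of 23 had an unadjusted p below 0.05 in edgeR, against 19.5% of all genes. In the RNAi line 0 of 23 fell and 3 rose, against 6.68% and 8.68% of all genes. These were LOC_Os03g57450 (from 36.9 ± 6.40 to 97.2 ± 28.6 CPM), LOC_Os05g50810 (from 71.6 ± 7.15 to 109 ± 7.24 CPM) and LOC_Os01g43410 (CPK1, from 80.6 ± 4.31 to 122 ± 11 CPM; SD, n = 3 each). Their edgeR adjusted p-values were 0.0329, 0.0177 and 0.0370. The calls were lost in 8, 4 and 9 of 20 alternatives. Of those alternatives 6, 4 and 7 leave out 1 library, among them RNAi ethanol 1 and 3 and RNAi PEP1 1 and 2 for each locus, RNAi ethanol 2 and wild type PEP1 1 for LOC_Os03g57450 and CPK1, and wild type ethanol 3 for CPK1. The highest adjusted p-values were 0.106, 0.0658 and 0.109. Without the 3 libraries that stood apart LOC_Os03g57450 and CPK1 missed the threshold (0.0679 and 0.0821).

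CPK4 (LOC_Os02g03410) was the 1 locus of the 51 that differed between the genotypes in edgeR. It was higher in the RNAi line, as were 2.16% of all genes under ethanol and 1.52% under PEP1, while 1.63% and 1.14% were lower. Under ethanol it had 39.8, 34.0 and 31.7 CPM in the wild type and 48.6, 75.3 and 74.9 CPM in the RNAi line. Under PEP1 it had 45.9, 43.1 and 51.8 CPM in the wild type and 92.6, 117 and 81.1 CPM in the RNAi line. The RNAi libraries are above the wild type libraries in each treatment, where 17.3% of all tested genes under ethanol and 16.0% under PEP1 had groups without overlap. These comparisons share no library, but they share 1 fit with its estimate of spread, and 1 RNAi line. The log2 difference was 0.91 ± 0.19 (SE, edgeR adjusted p = 0.0221) under ethanol and 1.04 ± 0.19 (edgeR adjusted p = 0.0122) under PEP1. With libraries left out, the first call was lost without wild type ethanol 2 or 3 or RNAi ethanol 2 or 3 (adjusted p = 0.0589, 0.1, 0.0932 and 0.1), the second without wild type PEP1 1 or 2 (0.0674 and 0.0652), and either without the 3 libraries that stood apart (0.0714 and 0.0522).

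Ferric reductases share the membrane flavocytochrome fold of RBOH proteins and pass electrons to chelated iron. Of the 2 loci of this list 1 was tested, LOC_Os04g36720 (FRO1). Its log2 change under PEP1 was -1.18 ± 0.41 in the wild type and -0.96 ± 0.40 in the RNAi line (SE, edgeR adjusted p = 0.138 and 0.127), and DESeq2 passed it in the wild type.

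**Figure D4:**
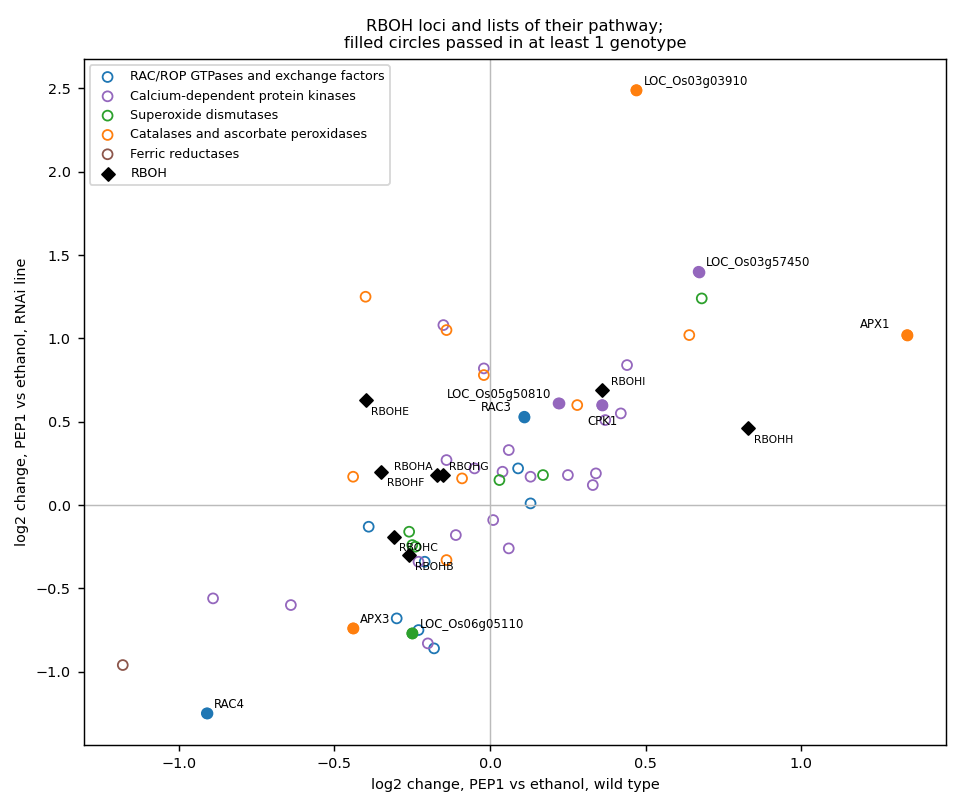
Log2 change under PEP1 in the wild type (x axis) and in the RNAi line (y axis) of the 8 tested RBOH loci (diamonds) and of 51 tested loci of the pathway lists (circles); filled circles passed in at least 1 genotype. RBOH loci lie between -0.40 and 0.83 on the x axis and between -0.30 and 0.69 on the y axis, and APX1 lies at 1.34 and 1.02.

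The genes most like each RBOH locus were taken by Pearson's r of log2 CPM over the 12 libraries, which share groups and depth, as a description. RBOHI was matched most closely, by LOC_Os03g59070 (r = 0.985) and LOC_Os03g12370 (r = 0.981), and 222 genes had an r above 0.9 with it. RBOHB was matched by LOC_Os05g50910 (r = 0.971) and LOC_Os03g45920 (r = 0.965), with 82 genes above 0.9. RBOHC was matched by LOC_Os07g01860 and LOC_Os04g41970 (r = 0.965 each), with 68 genes above 0.9. For the other loci 8 genes or fewer were above 0.9. Their closest genes were LOC_Os07g37130 and LOC_Os02g48990 for RBOHA, LOC_Os11g39300 and LOC_Os06g10109 for RBOHE, LOC_Os08g45190 and LOC_Os03g07130 for RBOHF, LOC_Os02g06330 and LOC_Os02g55430 for RBOHG, and LOC_Os03g43580 and LOC_Os07g29290 for RBOHH, at r from 0.891 to 0.920.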

How the data were processed

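The deposited file holds read counts by gene, as whole numbers without normalization. For aligner, genome build, annotation, counting tool and strand use, the answer is "not given in the sources used here", so reads of overlapping or closely similar genes may have been divided. Libraries were Illumina TruSeq RNA preparations of total root RNA, per the labels' protocols. The 12 columns carry sample titles and were assigned by them. Total counts ranged from 15368736 to 21317008, and no libraries within a group were duplicates (chi-square per degree of freedom of 15.0 or more).

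Counts were fitted with edgeR 4.0.16 in R 4.3.3, all 12 libraries in 1 fit of 4 groups, TMM scaling and edgeR's standard low-count filter (25602 genes kept), after a test on simulated data. The simulated libraries spread less than these, so that test does not give the error rates of the calls here. The quasi-likelihood test was adjusted by Benjamini-Hochberg over all genes tested, with a threshold of 0.05. SE is the absolute log2 change divided by the square root of F, and intervals are at 95%. Log2 CPM for correlations used a prior count of 2. DESeq2 1.42.0, limma-voom (limma 3.58.1), RLE size factors, other filters, a replicate block and left-out libraries were alternatives, and leaving out the 3 libraries that stood apart was added after seeing the data.

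Members and lists were chosen with earlier results of these data known, and list loci were written by hand. The naming rule took all RBOH loci, up to 4 loci per list and comparison with the smallest adjusted p, and the 2 most similar genes per RBOH locus. RAC1 was named outside it, for its link to RBOHB. Symbols of list loci are printed only where RefSeq (ASM3414082v1) lists them on the chromosome of the ID within 0.03 of its relative position. None of the IDs of the count table occur in it. No coordinates, lengths or sequences were used.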

Additional observations from a re-analysis of the deposited data

How the results depend on the processing

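The count of RBOH loci passing, 0 in each comparison, stayed 0 with RLE size factors, limma-voom, both other filters, the replicate block (0 in all 5) and a fit of only the groups compared. With DESeq2 it was 1 for PEP1 in the RNAi line and 2 for the genotypes under ethanol, and with the 3 libraries apart left out 1 for the genotypes under ethanol; the cause was not tested. Leaving out 1 library gave 0 to 1 for PEP1 in the wild type (RBOHD, without wild type ethanol 1), PEP1 in the RNAi line (RBOHI) and the genotypes under ethanol (RBOHA), and 0 to 0 for the genotypes under PEP1 and the interaction. RBOHD did not pass the low-count filter with all 12 libraries. Replicate numbers share no source in the labels. Correlations of deviations in same-numbered pairs ran from -0.49 to 0.60, with 9 of 18 above 0.1. In 11 of 36 cases a library correlated best with its own number in another group. Each group offers 3 numbers, so this is near what unrelated numbers would give. Some log2 values changed sign, and over the settings these ran from -0.65 to 0.69. With the replicate block, RBOHF under PEP1 between genotypes was -0.01. It also took CPK4 under ethanol, CPK1, LOC_Os03g57450 and APX3 to the other side of the threshold (adjusted p = 0.0527, 0.0514, 0.0562 and 0.0562). Without the 3 libraries, RBOHB was 0.01 for PEP1 in the RNAi line, 0.05 and 0.10 between genotypes under ethanol and PEP1, and 0.05 in the interaction, and under PEP1 between genotypes RBOHC was 0.13, RBOHF -0.14, RBOHG -0.16 and RBOHH 0.11. Leaving out 1 library turned a sign within these ranges: for PEP1 in the RNAi line RBOHB -0.63 to 0.06, RBOHC -0.40 to 0.06 and RBOHG -0.01 to 0.27; between genotypes under ethanol RBOHB -0.54 to 0.00 and RBOHH -0.15 to 0.69; under PEP1 RBOHA -0.19 to 0.03, RBOHB -0.58 to 0.10, RBOHC -0.33 to 0.13, RBOHF -0.14 to 0.12, RBOHG -0.16 to 0.12 and RBOHH -0.65 to 0.11; in the interaction RBOHB -0.36 to 0.32 and RBOHC -0.08 to 0.38. All genes passing numbered 1330, 3934, 971, 679 and 1 in the 5 comparisons, 2577, 6291, 1699, 1044 and 95 with DESeq2, 535 for the wild type alone in the fit, 2 in the interaction with the replicate block, and 2882, 2339, 639, 532 and 4 without the 3 libraries. Leaving out 1 library gave 571 to 2942, 1293 to 5604, 611 to 1046, 449 to 757 and 0 to 6. Depth limits RBOHD (52 reads in all) and RBOHE (232 reads).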
